A study of Mus musculus with 24 samples.

Results

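The complement and coagulation factors described here are 38 genes, chosen by name, of the 18171 genes measured in mouse liver. They were found by matching each gene identifier of the deposited table to its symbol. All 38 were measured, and all 38 passed the filter on low values (FPKM of 1 or more in 6 or more libraries), as did 10532 genes in all. FPKM is the number of sequenced fragments scaled by library total and by transcript length, so levels of different genes can be set side by side. C4a passed that filter mainly through 4 L2d13 and 5 WT libraries of set 4.

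RNA of 12 livers labelled as overexpressing L2d13 was compared with RNA of 12 wild-type (WT) livers, all from strain C57BL/6. The sample names carry a digit, 2 or 4, whose meaning is not given in the sources used here, and it splits each genotype into 6 libraries of set 2 and 6 of set 4. In the literature, L2d13 stands for a variant of lysyl oxidase-like 2, the product of Loxl2, that lacks exon 13, but the labels themselves give only the short name. The promoter that drives it, the line, and the age and sex of the mice are not given in the sources used here. Loxl2 had an FPKM of 1.501 ± 0.384 in L2d13 livers and 0.680 ± 0.254 in WT livers (SD, n = 12 each; log2 difference 0.57, limma adjusted p = 1.98e-05). Nothing in the labels says that each library came from its own animal, and p-values describe only the spread seen between libraries, which may be technical.

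Complement is a chain of plasma proteases and their substrates that marks and lyses microbes. Lectins or antibodies start it, C3 stands at its centre, and the terminal components build a pore in the target membrane. Coagulation is a second such chain, in which the contact and tissue factor routes meet at factor X, thrombin is made, and thrombin cuts fibrinogen to fibrin. Anticoagulants slow it and plasmin dissolves the clot. Hepatocytes make most of these plasma proteins, and several of them, such as fibrinogen and C3, rise in the acute phase response to interleukin 6 and interleukin 1. Clotting factors that depend on vitamin K are carboxylated in the endoplasmic reticulum before they are secreted.

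Most of these genes showed little difference between L2d13 and WT livers. Over both sets, 4 of the 38 passed the test, which is 10.5%, against 30.8% of all tested genes. Pros1, the gene of the anticoagulant protein S, was higher, and Mbl2, C4a and Klkb1 were lower. That is 1 of 38 called higher, where 25.9% of all tested genes were, and 3 of 38 called lower, where 4.86% of all tested genes were. The median log2 difference was 0.03 for the 38 members and 0.12 for all tested genes. Members ran from -0.81 (C4a) to 0.76 (Pros1). Of the 34 members that were not called, 31 had a 95% confidence interval of the difference that lay within 1.5-fold in either direction. At an unadjusted p under 0.05, 9 members would have passed. For no member did the 12 L2d13 and the 12 WT libraries fail to overlap, against 0.712% of all tested genes. The test was limma on log2(FPKM + 1) with set and genotype as terms, with Benjamini-Hochberg adjustment over all tested genes and calls at an adjusted p under 0.05. A fold on this scale understates the change of genes with low values.

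The count depended on the scaling of the libraries. With libraries scaled by median-of-ratios size factors, which moved the median of all tested genes by -0.12, 9 members passed, 1 higher and 8 lower. Of the 10532 tested genes, 1215 were then called higher and 1164 lower. The 5 added were Serpinc1, C8g, Proc, Mbl1 and C8a, all lower in L2d13 livers. With quantile normalization 8 members passed, 1 higher and 7 lower, and the added 4 were the same genes without C8a. Over all tested genes 1310 were then called higher and 1079 lower. With neither scaling was the share of members called far below that of all tested genes, as it was without them. Pros1, Mbl2, C4a and Klkb1 kept their direction and their call in both.

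**Figure D1:**
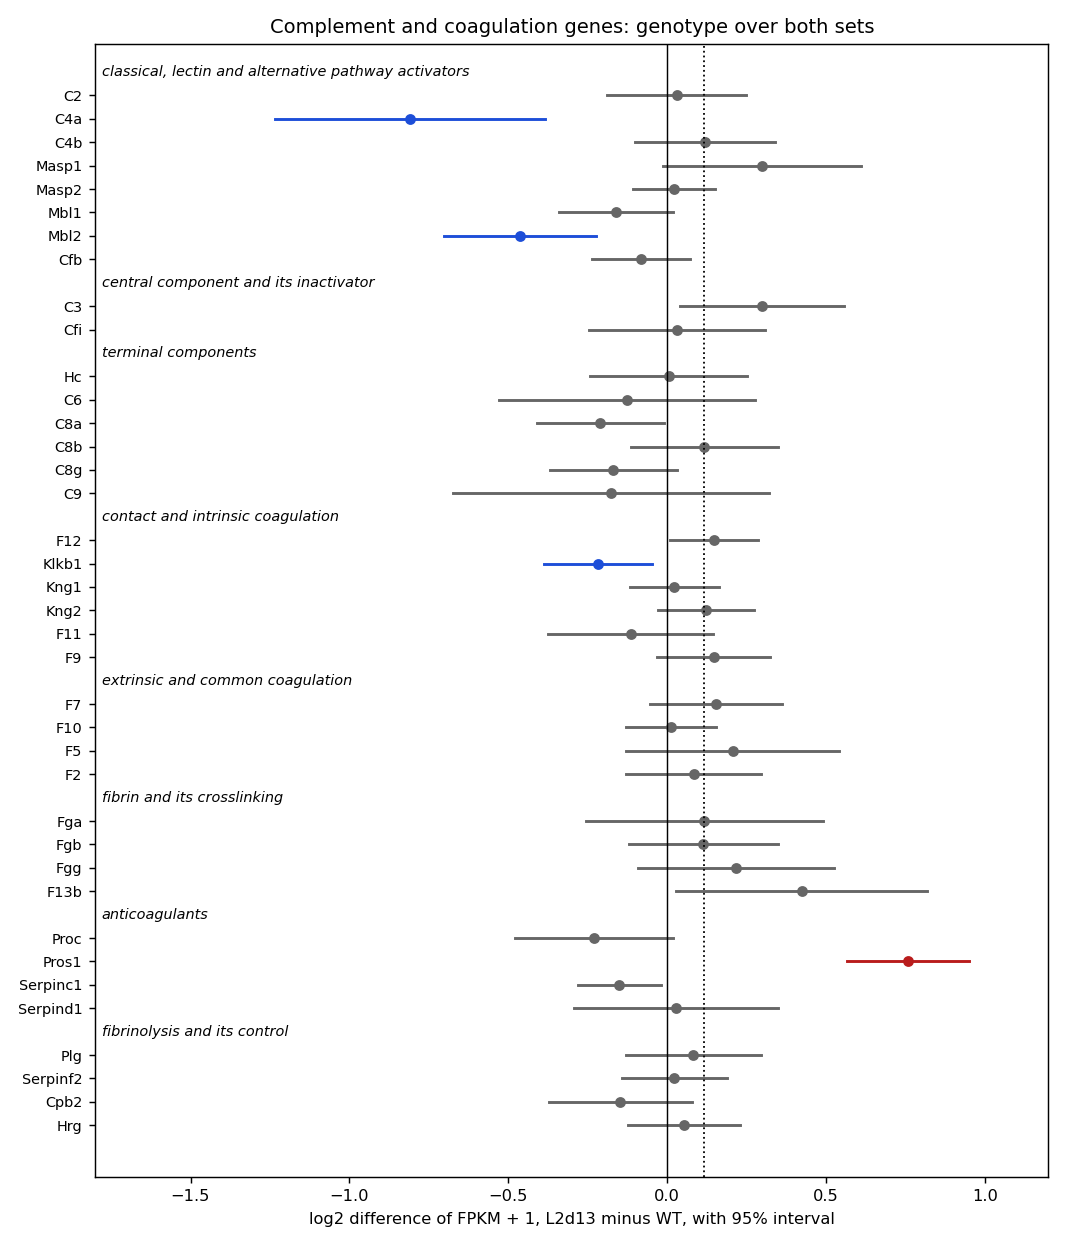
Log2 difference of FPKM + 1 between L2d13 and WT livers over both sets for the 38 members, ordered by role, with 95% confidence intervals. Red marks a call higher, blue a call lower and grey no call, and the dotted line is the median of all tested genes, 0.12; only Pros1, Mbl2, C4a and Klkb1 were called, with Pros1 at 0.76 and C4a at -0.81.

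Members were expressed at very different levels. The fibrinogen chain genes led, with mean FPKM over all 24 libraries of 2121 for Fgb, 1686 for Fgg and 1402 for Fga, which ranked 39, 48 and 55 among all genes. C3 followed at 1387 (rank 56), then Serpinc1, the gene of antithrombin, at 1170, and Kng1, the gene of kininogen, at 1084. At the other end stood Pros1 at 25.54, F11 at 22.08, Masp1 at 20.64 and C4a at 1.722. Together the 38 genes took 1.73% to 2.92% of the summed FPKM of a library in L2d13 livers (median 2.7%) and 1.56% to 2.92% in WT livers (median 2.42%). Leaving out C4a, the coefficient of variation of a member over 12 libraries ran from 7.4% to 36.6% in L2d13 livers and from 5.9% to 44.1% in WT livers.

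Some libraries stood apart from the rest over all genes, and members differ in them too. The 6 libraries with the widest deviation from the gene medians were L2d13 set 2 replicate 3, WT set 2 replicate 6 and WT set 4 replicates 9 to 12. The SD of their log2 deviations ran from 0.347 to 0.651, against 0.238 to 0.337 in the other 18, so the split is not a sharp one. Of the WT set 4 libraries 4 are among them, so without them that group has only 2. All of the 6 but L2d13 set 2 replicate 3 are WT libraries, so a term for them in a fit is partly confounded with genotype. Calls gained or lost with that term carry this limit. The liver labels could be checked against the summed FPKM of 6 hepatocyte markers. It ran from 27300 to 52200 in L2d13 livers (median 45200) and from 46800 to 57300 in WT livers (median 52300). Over both sets Cps1 was called higher (1.01, limma adjusted p = 0.0061) and Ttr lower (-0.69, limma adjusted p = 0.000141). The other hepatocyte markers were not called, and the median log2 difference was -0.03, against 0.12 for all tested genes.

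Among the 4 anticoagulants, Pros1 rose, and the other 3 were not called. Protein S is the cofactor with which activated protein C inactivates factors V and VIII, and it is also a ligand of the TAM receptors by which macrophages take up dying cells. In set 2, Pros1 had a lowest, median and highest FPKM of 25.02, 28.99 and 42.23 in L2d13 livers, against 15.21, 16.92 and 25.02 in WT livers. In set 4 the values were 28.13, 33.02 and 37.92 in L2d13 livers, against 15.55, 17.94 and 22.46 in WT livers. Every L2d13 library thus lay above the WT median of its set, and 11 of the 12 lay above the highest WT library, which the remaining one equalled.

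Pros1 averaged 32.34 ± 5.11 FPKM in L2d13 livers and 18.74 ± 3.22 FPKM in WT livers (SD, n = 12 each). The log2 difference was 0.76 ± 0.09 (SE; 95% interval 0.57 to 0.95; limma adjusted p = 3.83e-06), or 1.69-fold. Relative to the median of all tested genes it was 0.64. It was 0.73 in set 2 (limma adjusted p = 0.00111) and 0.79 in set 4 (limma adjusted p = 0.000766), where 15.1% and 13.3% of all tested genes were called. The difference between those values was 0.06, with an adjusted p of 0.955 in limma. Over both sets Pros1 was called under all 32 other settings tried, with log2 differences from 0.62 to 0.80. In set 4 alone it was 0.55 without the 6 libraries that stood apart, and the limma adjusted p was then 0.088.

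Pros1 lies at chr16:62854307-62929346 on the plus strand of GRCm38, and no exon of another gene overlaps it there. Its upstream sequence is shown because it is the 1 member that rose. The 250 bases before its RefSeq start (chr16:62854057-62854306, plus strand, GRCm38.p6) hold a match to the STAT3 motif TTCNNNGAA at position -92, in capitals:
Pros1: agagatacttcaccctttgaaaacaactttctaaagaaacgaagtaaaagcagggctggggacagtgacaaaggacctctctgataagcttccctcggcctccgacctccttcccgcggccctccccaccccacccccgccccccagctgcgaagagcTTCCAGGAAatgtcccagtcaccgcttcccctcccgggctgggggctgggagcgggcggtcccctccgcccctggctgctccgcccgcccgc
Of 30 RefSeq promoters found for 29 of the members, each of 300 bases from 250 before to 50 after the start, 6 held this motif on either strand, and 8.3% of all 32851 promoters of that length did. A match is a description of the letters and not of a bound site.

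Endothelial cells and macrophages also make protein S, so their markers were read beside it. The summed FPKM of 8 sinusoidal endothelial markers ran from 41.9 to 217 in L2d13 livers (median 97.0) and from 30.1 to 117 in WT livers (median 65.3), with 4 of the 8 called higher and none lower, against 25.9% and 4.86% of all tested genes. For 10 Kupffer cell and macrophage markers it ran from 75.1 to 368 in L2d13 livers (median 216) and from 48.6 to 256 in WT livers (median 152), with 2 called higher and none lower. The median log2 difference was 0.42 for the endothelial and 0.52 for the Kupffer cell markers, against 0.12 for all tested genes. Without the 6 libraries that stood apart, those medians were 0.16 and 0.05, against 0.06 for all tested genes. In that fit 1 endothelial and 0 Kupffer cell markers were called. Median-of-ratios scaling gave the same counts, but medians of 0.31 and 0.38, against 0.0 for all tested genes. None of these markers was near 0 in every library. For 8 stellate cell markers the median was 116 in L2d13 livers and 84.2 in WT livers, with 2 called higher, and 5 platelet and megakaryocyte markers summed to at most 9.25 in L2d13 livers and 8.77 in WT livers. The part of these cells in the Pros1 difference was not tested. In bulk tissue, fewer cells of a type and less RNA per cell cannot be told apart.

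Proc, the gene of protein C, Serpinc1 (antithrombin, the main inhibitor of thrombin and factor Xa) and Serpind1 (heparin cofactor II) were not called. Proc averaged 321.9 ± 72.3 FPKM in L2d13 livers and 378.8 ± 86.3 FPKM in WT livers (log2 difference -0.23, limma adjusted p = 0.149). Serpinc1 averaged 1109 ± 90.5 FPKM in L2d13 livers and 1230 ± 83.0 FPKM in WT livers (SD, n = 12 each), a log2 difference of -0.15 with a limma adjusted p of 0.0726. Serpind1 differed by 0.03 on the log2 scale. Scaled by median-of-ratios, Proc (-0.37, limma adjusted p = 0.018) and Serpinc1 (-0.29, limma adjusted p = 0.00789) were called lower. Both were called with quantile normalization as well, and neither was called without the 6 libraries that stood apart (limma adjusted p = 0.369 for Proc and 0.186 for Serpinc1).

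Of the 8 genes grouped as activators of the classical, lectin and alternative complement pathways, 2 were lower in L2d13 livers, Mbl2 and C4a, and none was higher. Mbl2 codes for mannose-binding lectin C, which binds sugars on microbes and starts the lectin pathway. In set 2 its lowest, median and highest FPKM were 117.86, 172.3 and 233.11 in L2d13 livers, against 181.87, 236.97 and 348.88 in WT livers. In set 4 they were 136.59, 195.76 and 225.35 in L2d13 livers, against 206.55, 243.85 and 256.3 in WT livers. All 12 L2d13 libraries lay below the WT median of their set, and 6 lay below the lowest WT library, so the groups overlap.

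Mbl2 averaged 178.2 ± 36.0 FPKM in L2d13 livers and 245.1 ± 46.8 FPKM in WT livers (SD, n = 12 each). The log2 difference was -0.46 ± 0.12 (SE; 95% interval -0.70 to -0.22; limma adjusted p = 0.00403), and it passed under all 32 other settings, with values from -0.61 to -0.41. In set 2 it was -0.54 (limma adjusted p = 0.0303), but leaving out any 1 of 6 libraries ended that call: L2d13 set 2 replicate 2, 3 or 4, or WT set 2 replicate 1, 2 or 4. The largest adjusted p among these was 0.0772, with limma. In set 4 the log2 difference was -0.39 (limma adjusted p = 0.117), and it passed there with the 6 libraries that stood apart as a term (-0.61, limma adjusted p = 0.0341). Mbl2 lies at chr19:30232942-30239687 on the plus strand of GRCm38.

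Mbl1, which codes for mannose-binding lectin A, averaged 179.1 ± 24.9 FPKM in L2d13 livers and 200.2 ± 25.5 FPKM in WT livers (SD, n = 12 each). Its log2 difference of -0.16 was not called (limma adjusted p = 0.167), while it was called lower with median-of-ratios scaling (-0.30, limma adjusted p = 0.0144) and with quantile normalization (-0.20, limma adjusted p = 0.0443). No run of 50 bases is shared by the transcripts of Mbl1 and Mbl2. The proteases that the lectins carry did not pass: Masp1 had a log2 difference of 0.30 (limma adjusted p = 0.138) and Masp2 one of 0.02. Masp1 averaged 22.29 ± 4.76 FPKM in L2d13 livers and 18.99 ± 8.37 FPKM in WT livers, and without the 6 libraries that stood apart its difference was -0.02.

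**Figure D2:**
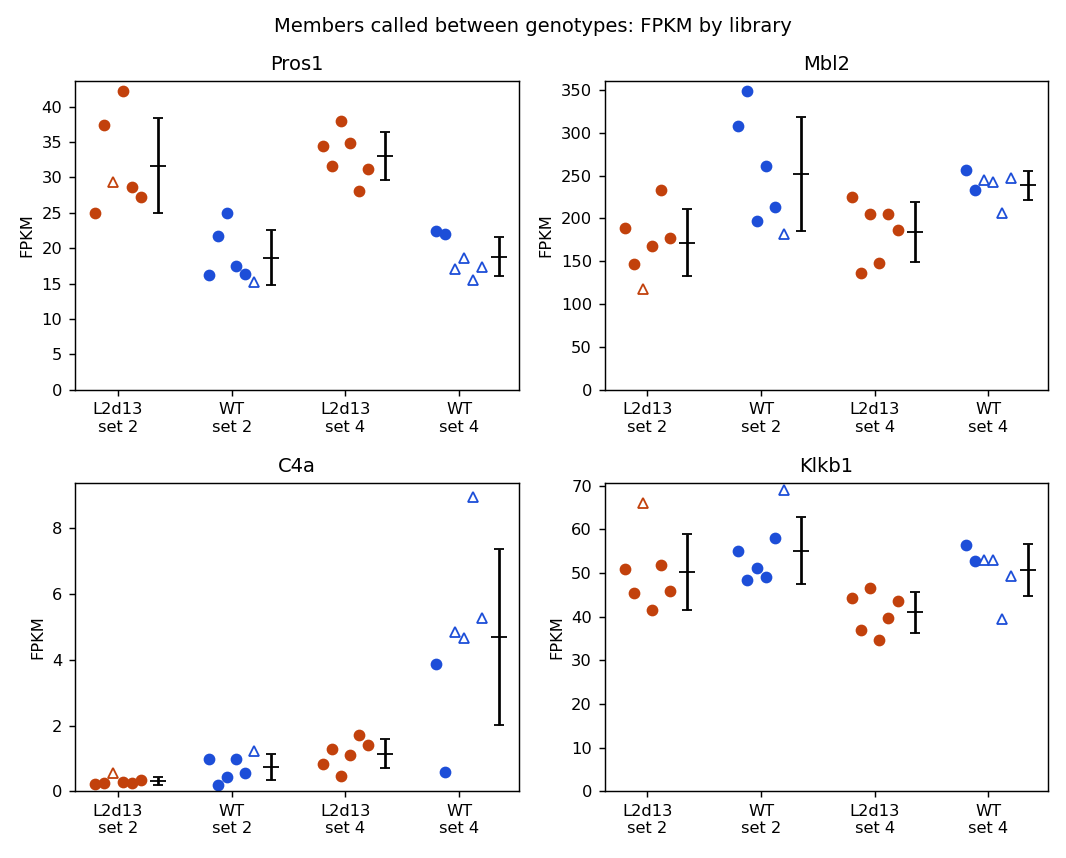
FPKM of the 4 called members by library in the 4 groups, on linear axes, L2d13 left of WT within each set. Filled circles are the 18 other libraries, open triangles the 6 that stood apart, and bars give mean and SD of 6; Pros1 is higher in L2d13 livers in both sets, while the high C4a values are those of WT set 4, up to 8.93.

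C4a was the lowest member by level and had the largest difference. Together with C4b it belongs to a pair of near-identical genes. C4b codes for complement component C4, the substrate of the activator proteases of both the classical and the lectin pathway. In set 2, C4a had a lowest, median and highest FPKM of 0.22, 0.28 and 0.55 in L2d13 livers, against 0.2, 0.77 and 1.22 in WT livers. In set 4 the values were 0.48, 1.2 and 1.72 in L2d13 livers, against 0.59, 4.75 and 8.93 in WT livers. Most of the difference thus sits in WT set 4, where 5 of the 6 libraries lay above every L2d13 library. Of these 5, replicates 9 to 12 are all among those that stood apart, and the highest was replicate 11.

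The log2 difference of C4a over both sets was -0.81 ± 0.21 (SE; 95% interval -1.23 to -0.38; limma adjusted p = 0.00471). It was -1.26 in set 4 (limma adjusted p = 0.00374) and -0.36 in set 2 (limma adjusted p = 0.388). The difference between the sets, -0.90, had an unadjusted p of 0.0269 and did not pass over all genes in limma (adjusted p = 0.608). Without WT set 4 replicate 8, the 1 low library of that group, it did (-1.23, limma adjusted p = 0.0303). Without the 6 libraries that stood apart, C4a was not called over both sets (-0.36, limma adjusted p = 0.157) nor in set 4 (-0.41, limma adjusted p = 0.449). With those libraries as a term it was called over both sets (-0.52, limma adjusted p = 0.0239) but not in set 4 (-0.74, limma adjusted p = 0.0803).

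Reads from stretches that C4a and C4b share cannot be told apart. Their longest transcripts, of 5371 and 5379 bases, were 96.1% identical, with 207 mismatches in 5367 aligned bases. Of the 50-base windows of each, 35.2% occurred in the other, and of the 100-base windows 16.5% did. The annotation types C4a as a transcript without a coding frame (chr17:34809092-34823464, minus strand, GRCm38) and C4b as protein coding (chr17:34728380-34743882, minus strand). To show how the copies differ, a 60-base stretch is given, with its 13 mismatches in capitals. It has the most mismatches among stretches that align without gaps within the coding part of C4b. It spans bases 2755 to 2814 of the C4a transcript and 2761 to 2820 of the C4b transcript:
C4a: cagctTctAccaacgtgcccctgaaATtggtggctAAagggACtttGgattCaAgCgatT
C4b: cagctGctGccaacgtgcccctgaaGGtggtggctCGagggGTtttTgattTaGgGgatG
C4a made up at most 1.01% of the summed FPKM of the pair in any L2d13 library, and at most 5.45% in any WT library. The pair summed to 193.3 ± 39.9 FPKM in L2d13 livers and 179.0 ± 30.2 FPKM in WT livers (SD, n = 12 each). The summed pair had a log2 difference of 0.10 ± 0.10 (SE, limma adjusted p = 0.491), and C4b alone had one of 0.12 (limma adjusted p = 0.418). As C4b makes up nearly all of the sum, the sum cannot test the C4a difference. The C4a value is uncertain, as it is low and the copies share part of their sequence. How the counting shared reads between the copies was not tested.

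C2, which codes for the protease that joins C4b in the C3 convertase, had a log2 difference of 0.03. Cfb, its counterpart in the alternative pathway, averaged 365.2 ± 40.0 FPKM in L2d13 livers and 387.0 ± 46.2 FPKM in WT livers (log2 difference -0.08, limma adjusted p = 0.434). C2, Cfb, C4a and C4b neighbour each other on chromosome 17, and of these C4a alone was called.

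C3, the central component whose cleavage all pathways share, averaged 1510 ± 166 FPKM in L2d13 livers and 1264 ± 329 FPKM in WT livers (SD, n = 12 each). In set 2 its lowest, median and highest FPKM were 1196.91, 1495.33 and 1778.87 in L2d13 livers, against 766.48, 1385.05 and 1658.93 in WT livers. In set 4 they were 1382.16, 1437.84 and 1648.93 in L2d13 livers, against 771.01, 1064.47 and 1662.68 in WT livers. Of the 12 WT libraries 5 lay below the lowest L2d13 library, and all 5 are among those that stood apart; the other WT libraries lay within the L2d13 range. The log2 difference of 0.30 did not pass (limma adjusted p = 0.0729), and it was 0.03 without the 6 libraries (limma adjusted p = 0.816). It passed when L2d13 set 2 replicate 3, or WT set 2 replicate 2, or WT set 4 replicate 7 or 8 was left out, with limma adjusted p-values of 0.0406, 0.0482, 0.045 and 0.03. Cfi, the protease that inactivates C3b and C4b, averaged 241.9 ± 43.6 FPKM in L2d13 livers and 237.6 ± 51.6 FPKM in WT livers. Its log2 difference was 0.03 (limma adjusted p = 0.888), but with the 6 libraries that stood apart as a term in the fit it was -0.22 and passed (limma adjusted p = 0.0272).

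None of the 6 terminal components, which form the membrane pore, was called, and their median log2 difference was -0.15. Hc, the mouse gene of C5, differed by 0.00. C6 had a median FPKM of 57.4 in L2d13 livers and 55.38 in WT livers, and C9, the subunit that lines the pore, averaged 127.9 ± 43.1 FPKM in L2d13 livers and 142.7 ± 46.5 FPKM in WT livers. The log2 differences were -0.13 for C6 and -0.18 for C9, and their wide spread leaves room for larger ones: the 95% interval of C9 ran from -0.68 to 0.32. The chains of C8 differed in sign, with log2 differences of -0.21 for C8a, 0.12 for C8b and -0.17 for C8g (limma adjusted p = 0.103, 0.455 and 0.192). C8a averaged 129.8 ± 18.6 FPKM in L2d13 livers and 151.0 ± 27.7 FPKM in WT livers (SD, n = 12 each). It was called lower without the 6 libraries that stood apart (-0.34, limma adjusted p = 0.0258) and with median-of-ratios scaling (-0.35, limma adjusted p = 0.022), and not with quantile normalization (limma adjusted p = 0.0903). C8g was called lower with median-of-ratios scaling and quantile normalization, but not without the 6 libraries (-0.08, limma adjusted p = 0.61).

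Of the 6 genes of the contact and intrinsic route, Klkb1 was lower in L2d13 livers and none was higher. Klkb1 codes for plasma prekallikrein, which activates factor XII and frees bradykinin from kininogen. In set 2 its lowest, median and highest FPKM were 41.48, 48.38 and 66.06 in L2d13 livers, against 48.38, 53.1 and 68.96 in WT livers. In set 4 they were 34.75, 41.58 and 46.66 in L2d13 livers, against 39.47, 52.92 and 56.51 in WT livers. The groups overlap in both sets, and 11 of 12 L2d13 libraries lay below the WT median of their set.

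Klkb1 averaged 45.62 ± 8.2 FPKM in L2d13 livers and 52.92 ± 6.96 FPKM in WT livers (SD, n = 12 each), a log2 difference of -0.22 ± 0.08 (SE; 95% interval -0.39 to -0.05; limma adjusted p = 0.0463). The call is close to the threshold: it was lost in 16 of the 24 fits that left out 1 library, with a largest limma adjusted p of 0.0809, with the 6 libraries as a term (-0.16, limma adjusted p = 0.151), and with no filter on low values (limma adjusted p = 0.0555). It was kept without those libraries (-0.25, limma adjusted p = 0.0295). Within 1 set it did not pass (-0.14 in set 2 and -0.30 in set 4; limma adjusted p = 0.458 and 0.0859). It did pass in both sets with median-of-ratios scaling (-0.32 and -0.40; limma adjusted p = 0.0347 and 0.00579). In set 4 it also passed with quantile normalization (limma adjusted p = 0.0468) and without WT set 4 replicate 11 (limma adjusted p = 0.0483). Klkb1 (chr8:45266689-45294859, minus strand, GRCm38) shares exon bases with the predicted gene Gm45753 on the same strand, so reads in those bases cannot be given to either. Its neighbour F11 (chr8:45241174-45262031), the gene of factor XI, which is a close relative of prekallikrein, had a log2 difference of -0.11 (limma adjusted p = 0.524).

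F12, which codes for factor XII, averaged 258.6 ± 24.5 FPKM in L2d13 livers and 233.4 ± 22.7 FPKM in WT livers, a log2 difference of 0.15 (limma adjusted p = 0.1). Kng1 averaged 1095 ± 131 FPKM in L2d13 livers and 1073 ± 63.3 FPKM in WT livers, with a log2 difference of 0.02 (limma adjusted p = 0.837). Its copy Kng2 had one of 0.12 (limma adjusted p = 0.21). As 17.6% of the 50-base windows and 5.69% of the 100-base windows of Kng2 occurred in Kng1, their FPKM was also summed. The sum differed by 0.03 on the log2 scale. F9, the gene of factor IX, averaged 79.01 ± 12.2 FPKM in L2d13 livers and 70.82 ± 7.65 FPKM in WT livers, a log2 difference of 0.15 (limma adjusted p = 0.205). Without L2d13 set 2 replicate 3, F9 was called higher (0.20, limma adjusted p = 0.029).

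The 4 genes of the extrinsic and common route did not pass. F7, whose product starts clotting together with tissue factor, and F10, which codes for factor X, had log2 differences of 0.15 and 0.01. F5, the cofactor of factor X, averaged 66.27 ± 12.4 FPKM in L2d13 livers and 59.55 ± 21.7 FPKM in WT livers (log2 difference 0.21, limma adjusted p = 0.356). F2, the gene of prothrombin, averaged 828.7 ± 78.1 FPKM in L2d13 livers and 793 ± 148 FPKM in WT livers (log2 difference 0.08, limma adjusted p = 0.572). Of the 6 members that depend on vitamin K (F2, F7, F9, F10, Proc and Pros1), Pros1 alone was called, and their median log2 difference was 0.12.

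The fibrinogen chain genes and F13b, which codes for the carrier subunit of the clot-crosslinking factor XIII, were not called either, with a median log2 difference of 0.17. Fgb averaged 2199 ± 399 FPKM in L2d13 livers and 2043 ± 508 FPKM in WT livers. Fgg averaged 1795 ± 322 FPKM in L2d13 livers and 1578 ± 425 FPKM in WT livers. Fga averaged 1452 ± 341 FPKM in L2d13 livers and 1352 ± 388 FPKM in WT livers (SD, n = 12 each). The log2 differences were 0.11 for Fgb (95% interval -0.12 to 0.35), 0.22 for Fgg (-0.09 to 0.52) and 0.12 for Fga (-0.26 to 0.49), with limma adjusted p-values of 0.474, 0.286 and 0.662. F13b averaged 68.07 ± 13.2 FPKM in L2d13 livers and 53.55 ± 20.3 FPKM in WT livers, a log2 difference of 0.42 (95% interval 0.03 to 0.82; limma adjusted p = 0.0938). F13b was called higher when L2d13 set 2 replicate 3 or WT set 4 replicate 8 was left out (limma adjusted p = 0.0413 and 0.0428). Without the 6 libraries that stood apart, the log2 differences were 0.11 for F13b, 0.18 for Fgb, 0.13 for Fgg and -0.01 for Fga, none of them called by limma. With median-of-ratios scaling those of Fga and Fgb were -0.03.

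In set 2, Fga had a lowest, median and highest FPKM of 534.98, 1386.54 and 1683.71 in L2d13 livers, against 560.59, 1331.78 and 1635.27 in WT livers. Fgb had 1192.65, 2103.76 and 2524.84 in L2d13 livers, against 1324.75, 1770.41 and 2052.14 in WT livers, and Fgg had 912.76, 1774.11 and 2025.33 in L2d13 livers, against 681.2, 1541.68 and 1746.55 in WT livers. The groups overlap for each chain. In set 4, Fga had 1322.85, 1557.86 and 1940.98 in L2d13 livers, against 811.28, 1530.76 and 1871.37 in WT livers. Fgb had 2067.19, 2345.39 and 2717.48 in L2d13 livers, against 1960.36, 2169.44 and 3388.32 in WT livers, and Fgg had 1689.94, 1896.72 and 2166.08 in L2d13 livers, against 1094.91, 1727.08 and 2375.78 in WT livers. In set 4 the WT range held the whole L2d13 range for Fgb and Fgg, and all but the top of it for Fga. The chains varied together over libraries of a group. In each of the 4 groups the same library was lowest for all 3 chains: L2d13 set 2 replicate 3, L2d13 set 4 replicate 9, WT set 2 replicate 6 and WT set 4 replicate 9. Of these, all but L2d13 set 4 replicate 9 are among the libraries that stood apart over all genes. WT set 4 replicate 11 was the highest of its group for each chain, with 3388.32 FPKM of Fgb. In L2d13 set 2 the highest library was replicate 4 for Fga and replicate 5 for Fgb and Fgg. L2d13 set 2 replicate 3 was also low for Cfi, F5, F13b, Plg and Serpinf2, and WT set 2 replicate 6 for C3, Cfi, F2 and Cpb2. The low values there were thus not particular to the fibrinogen chains.

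The fibrinogen genes lie side by side on chromosome 3 of GRCm38: Fgg at 83007724 to 83015049 and Fga at 83026076 to 83033627 on the plus strand, and Fgb at 83040141 to 83049863 on the minus strand. The 250 bases before each RefSeq start (GRCm38.p6) are shown as a description. Any link of their motifs to the shared variation was not tested. Capitals mark matches to the STAT3 motif TTCNNNGAA and the interleukin 6 element CTGGGAA, each searched on both strands.
Fga (chr3:83025903-83026152, plus): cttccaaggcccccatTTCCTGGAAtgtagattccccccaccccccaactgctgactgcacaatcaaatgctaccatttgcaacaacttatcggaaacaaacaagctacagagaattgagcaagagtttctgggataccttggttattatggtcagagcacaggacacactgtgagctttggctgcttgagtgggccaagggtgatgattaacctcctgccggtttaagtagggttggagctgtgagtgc
Fgb (chr3:83049864-83050113, minus): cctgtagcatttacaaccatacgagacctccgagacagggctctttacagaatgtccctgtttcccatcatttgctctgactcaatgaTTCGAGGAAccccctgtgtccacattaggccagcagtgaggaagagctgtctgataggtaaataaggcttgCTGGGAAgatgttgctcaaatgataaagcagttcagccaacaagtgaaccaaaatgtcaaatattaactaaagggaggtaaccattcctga
Fgg (chr3:83007474-83007723, plus): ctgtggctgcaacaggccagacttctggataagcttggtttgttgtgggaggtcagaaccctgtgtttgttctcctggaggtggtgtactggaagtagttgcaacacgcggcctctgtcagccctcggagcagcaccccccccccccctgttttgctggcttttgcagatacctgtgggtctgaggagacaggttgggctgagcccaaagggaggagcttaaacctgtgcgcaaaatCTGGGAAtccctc
Fga matched the STAT3 motif at -234. Fgb matched the STAT3 motif at -162 and the interleukin 6 element at -91. Fgg matched the interleukin 6 element alone, at -13. Over the 30 member promoters, the interleukin 6 element was found in 6, against 11.1% of all promoters. The C/EBP motif TTNNGNAAT was in 11 of the 30 and in 11.5% of all promoters. The HNF4 motif CAAAGTCCA was in none of the 30, and in 0.475% of all promoters.

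**Figure D3:**
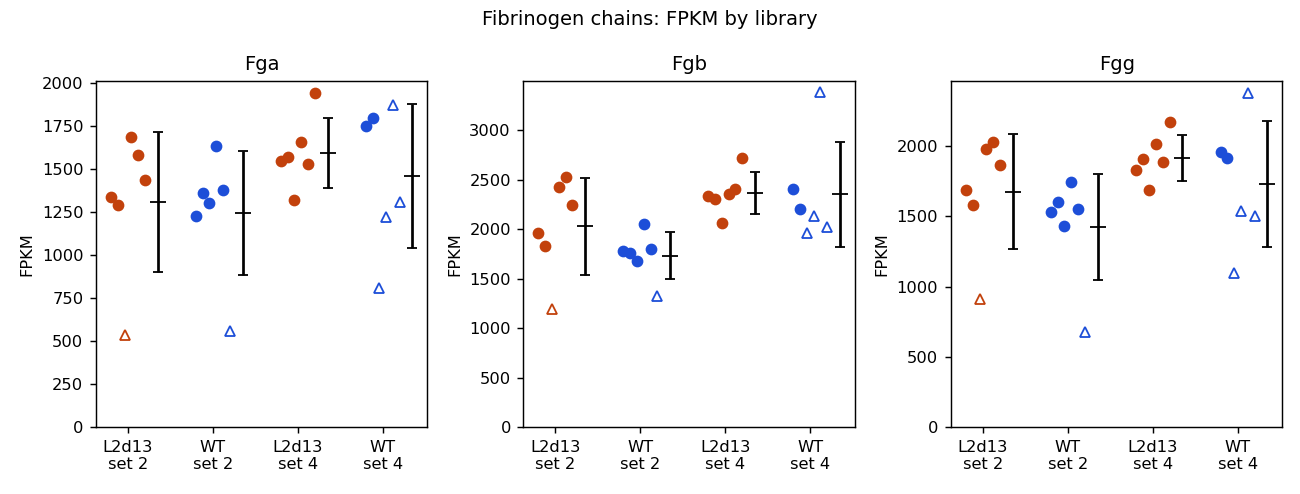
FPKM of Fga, Fgb and Fgg by library in the 4 groups, on linear axes, L2d13 left of WT within each set. Filled circles are the 18 other libraries, open triangles the 6 that stood apart, and bars give mean and SD of 6; the groups overlap for each chain, and the highest Fgb value, 3388.32, is in WT set 4.

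The 4 genes of fibrinolysis and its control were not called, with a median log2 difference of 0.04. Plg, the gene of plasminogen, averaged 872 ± 154 FPKM in L2d13 livers and 819 ± 119 FPKM in WT livers (log2 difference 0.08, limma adjusted p = 0.582). Serpinf2, which codes for the plasmin inhibitor, differed by 0.02 on the log2 scale. Hrg, which codes for the plasminogen-binding histidine-rich glycoprotein, averaged 587.8 ± 95.2 FPKM in L2d13 livers and 565.9 ± 79.2 FPKM in WT livers (log2 difference 0.05, limma adjusted p = 0.679). Cpb2, whose product removes the lysines of fibrin that plasminogen binds, had a log2 difference of -0.15 (limma adjusted p = 0.324). With the 6 libraries that stood apart as a term, Cpb2 (-0.27) and C9 (-0.58) were called lower, with limma adjusted p-values of 0.0376 and 0.0109.

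Within a single set, 2 of the 38 members passed in set 2 (Pros1 higher, Mbl2 lower) and 2 in set 4 (Pros1 higher, C4a lower). That is 5.3% in each set, against 15.1% of all tested genes in set 2 and 13.3% in set 4. With median-of-ratios scaling the counts were 4 and 5. The shares of all tested genes per set are not given for it, so those counts cannot be set beside a background. In set 4 without the 6 libraries that stood apart the count was 0, with 2 WT libraries left. No member passed the test of the difference between the sets in limma, where 0.152% of all tested genes did. At an unadjusted p under 0.05, C4a alone did. Of the 38 members, 17 had a 95% interval for this difference within 1.5-fold, and for the others a larger difference between the sets is not excluded.

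Set 4 was also compared with set 2 within each genotype. In L2d13 livers no member passed in limma, against 6.06% of all tested genes, and 5 had an unadjusted p under 0.05. C6 had the largest difference: its lowest, median and highest FPKM were 51.96, 66.97 and 80.28 in L2d13 set 4, against 20.79, 40.88 and 67.97 in L2d13 set 2. That is a log2 difference of 0.78 (limma adjusted p = 0.088), which passed when L2d13 set 2 replicate 4 was left out (0.94, limma adjusted p = 0.0417). In WT livers C4a alone passed, against 0.190% of all tested genes, and 3 members had an unadjusted p under 0.05. C4a was higher in WT set 4 than in WT set 2 by 1.56 on the log2 scale (limma adjusted p = 0.00782), and by 0.67 in L2d13 livers (limma adjusted p = 0.137), where it passed without WT set 4 replicate 8, at a limma adjusted p of 0.0194. Without the 6 libraries that stood apart, the C4a call in WT livers was lost, and in L2d13 livers C6 and C4a were called higher in set 4.

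**Figure D4:**
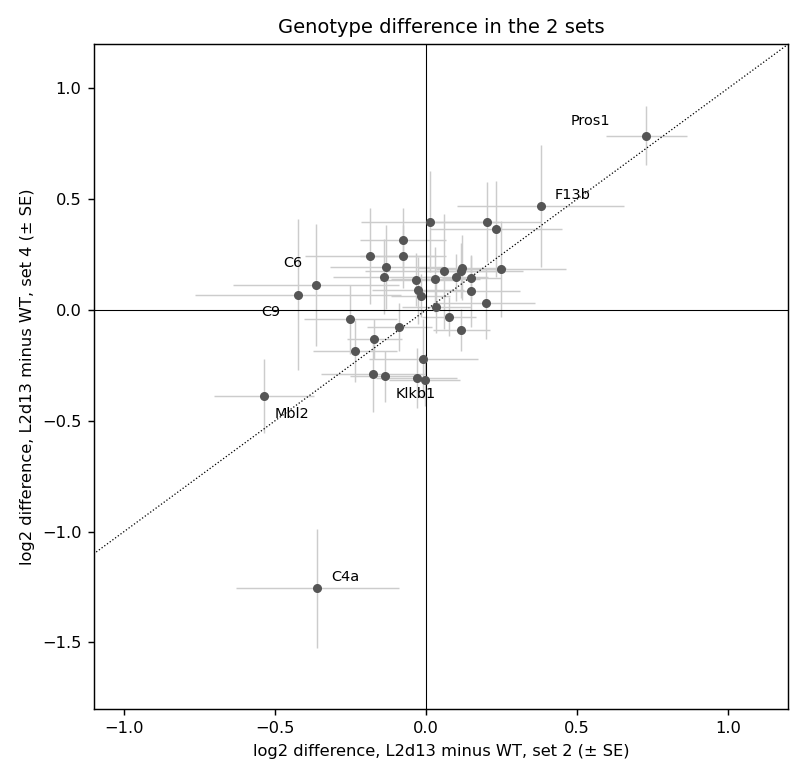
Log2 difference of FPKM + 1 between L2d13 and WT livers in set 4 against that in set 2 for the 38 members, with SE bars and a dotted line where both are equal. Pros1 lies near the line at 0.73 in set 2 and 0.79 in set 4, and C4a lies farthest from it, at -0.36 in set 2 and -1.26 in set 4.

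Other genes of these pathways were read from lists chosen with earlier results known. Of 20 tested genes among 28 other complement components, regulators and receptors, 5 were higher and 2 lower, with a median log2 difference of 0.22; that is 5 of 20 higher beside 25.9% of all tested genes. With the 6 libraries that stood apart left out, 1 was higher and 3 lower, with a median of 0.03. C1s1, a protease of the first complement component, averaged 140 FPKM in L2d13 livers and 160 FPKM in WT livers (-0.20, limma adjusted p = 0.0122). Cd59a, which blocks the membrane pore, averaged 30.9 ± 13.9 FPKM in L2d13 livers and 40.0 ± 7.65 FPKM in WT livers (-0.42, limma adjusted p = 0.0265). These 2 were called lower with both other scalings too. The 5 higher genes, Cr1l, Colec10, Vsig4, Fcna and Clu, were called in neither. Vsig4 is also among the Kupffer cell markers given above.

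Among 13 tested of 24 other genes of coagulation and fibrinolysis, 4 were higher and none lower, with a median of 0.27, beside 25.9% higher and 4.86% lower of all tested genes. Leaving those 6 libraries out gave 3 higher and 2 lower, with a median of 0.15. F3, the gene of tissue factor, averaged 2.12 ± 0.545 FPKM in L2d13 livers and 1.15 ± 0.643 FPKM in WT livers (0.57, limma adjusted p = 0.00243), and was called higher under both other scalings. Fgl1, which codes for a fibrinogen-like protein secreted by hepatocytes, averaged 368 ± 79.9 FPKM in L2d13 livers and 264 ± 68.0 FPKM in WT livers (0.49, limma adjusted p = 0.00821). It was called with quantile normalization and not with median-of-ratios scaling. With either scaling 2 genes of this list were lower.

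The 15 genes of the vitamin K cycle and of the export and processing of clotting factors were all tested, and 6 were higher and 1 lower (median 0.19), beside 25.9% higher and 4.86% lower of all tested genes, whose median was 0.12. In the 18 other libraries 5 were higher and none lower (median 0.13). Vkorc1l1, a paralog of the vitamin K reductase, averaged 13.0 ± 1.70 FPKM in L2d13 livers and 8.03 ± 1.55 FPKM in WT livers (0.64, limma adjusted p = 1.97e-05). Sec24d, a subunit of the COPII coat of export vesicles, averaged 30.0 FPKM in L2d13 livers and 17.3 FPKM in WT livers (0.81, limma adjusted p = 0.000377). Both were called with the other scalings and without the 6 libraries that stood apart. Mcfd2, part of the cargo receptor that carries factors V and VIII, averaged 114 FPKM in L2d13 livers and 86.5 FPKM in WT livers (0.38, limma adjusted p = 0.00571), and was not called with median-of-ratios scaling. Vkorc1, the warfarin target, averaged 221 FPKM in L2d13 livers and 220 FPKM in WT livers, with a log2 difference of 0.01. Ggcx, the carboxylase itself, had one of 0.16 (limma adjusted p = 0.21). By median-of-ratios scaling the list had 3 higher and 2 lower.

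Transcription factors of the hepatocyte were also read. Of 14, all tested, 4 were higher and 2 lower, with a median of 0.16, and 25.9% of all tested genes were higher and 4.86% lower. In the 18 other libraries 2 were higher and 3 lower. Cebpb, an acute phase factor, averaged 37.3 ± 11.8 FPKM in L2d13 livers and 86.4 ± 34.8 FPKM in WT livers, a log2 difference of -1.13 (limma adjusted p = 0.000251). It passed with the other scalings and without the 6 libraries that stood apart. Hnf4a, at 142 FPKM in L2d13 livers and 173 FPKM in WT livers, was not called (-0.28, limma adjusted p = 0.0559). By median-of-ratios scaling 2 of the list were higher and 5 lower. Of 12 genes of interleukin 6 signalling, all tested, 4 were higher and 2 lower, with a median of 0.04, beside the same shares of all tested genes. Higher were Jak1 (0.41), Nfkb1 (0.29), Stat3 (0.34, limma adjusted p = 0.0149) and Il6st, a subunit of the receptor (0.59, limma adjusted p = 0.00681). Lower were Il1r1 (-0.96, limma adjusted p = 0.00874) and Nfkbia (-0.69, limma adjusted p = 0.0131). By median-of-ratios scaling 3 of these 12 were higher and 3 lower. Without the 6 libraries that stood apart, none of these 12 was higher and 1 was lower. C3, Fga, Fgb and Fgg, the members named above as acute phase genes, had differences of 0.11 to 0.30, none of them called. The median of all tested genes was 0.12. Other members were not grouped by this response.

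**Figure D5:**
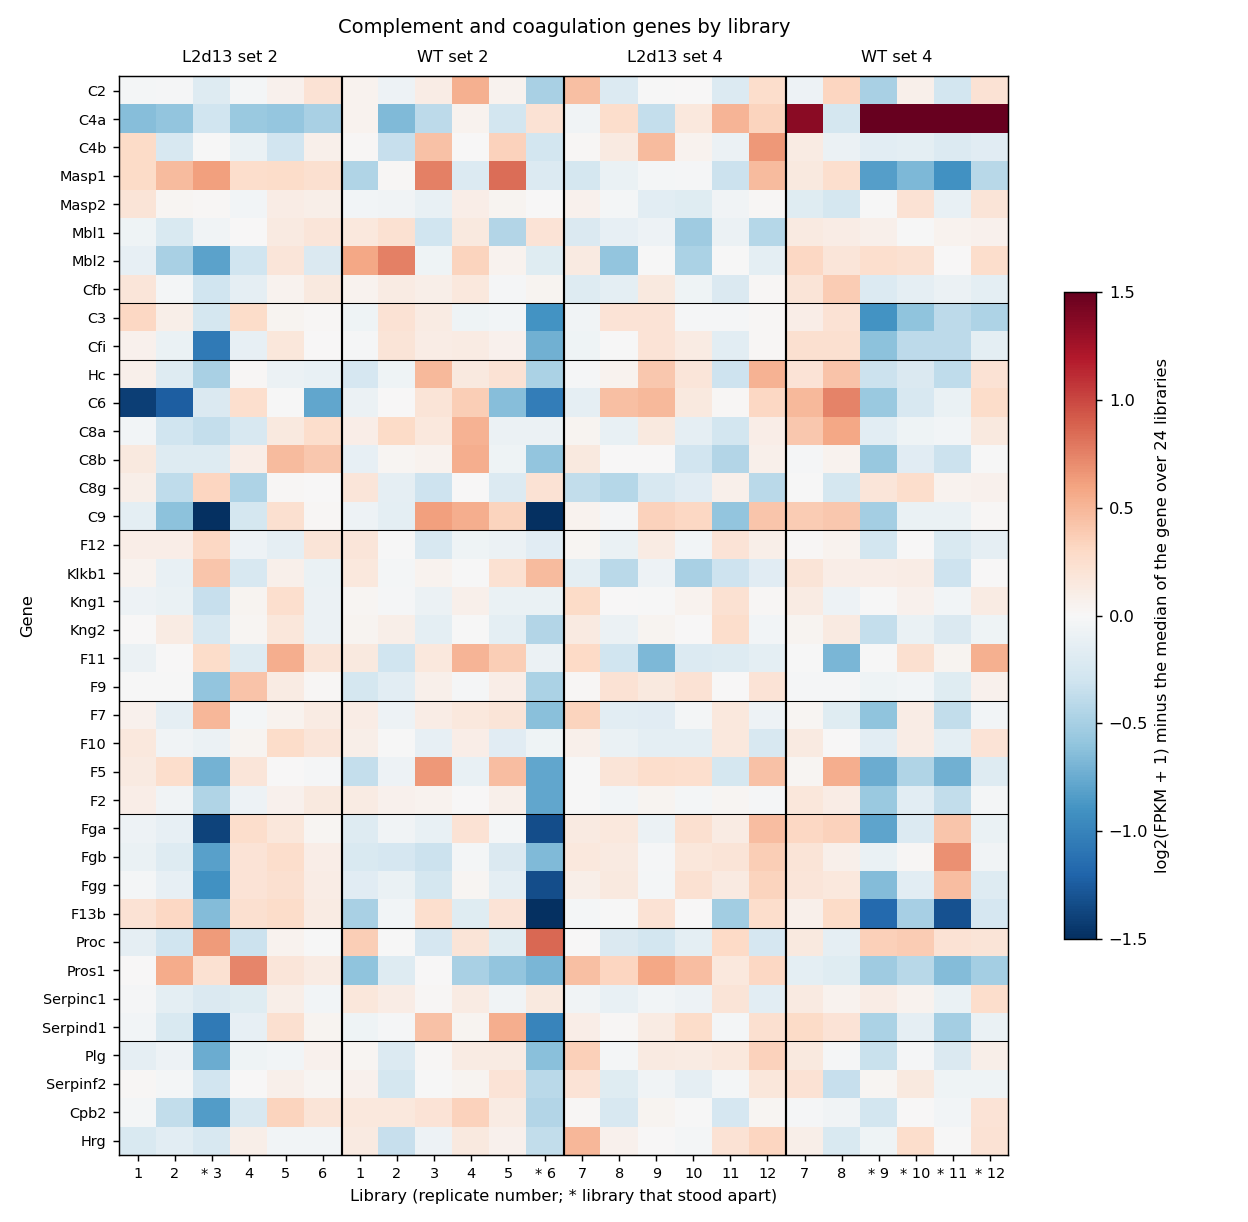
Level of the 38 members in each of the 24 libraries, as log2(FPKM + 1) minus the median of the gene over all libraries, with genes in rows by role and libraries in columns by group, L2d13 left of WT within each set. Colours end at 1.5 in both directions, so that values beyond are shown as 1.5; L2d13 set 2 replicate 3 and WT set 2 replicate 6 are low for the fibrinogen chains, and Pros1 is above its median in most L2d13 libraries.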

How the data were processed

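Liver RNA of 24 mouse samples, isolated in TRIzol, was sequenced on a BGISEQ-500, per the labels. HISAT, Bowtie2, RSEM and the build GRCm38.p5 are named, with no tool version, in the submitters' processing notes. The deposited FPKM table of 18171 genes was used as the authors made it. Its values hold no read totals, so the depth per library is unknown. Strand is not stated in the sources used here. Exons of C2, Cfb, F5, Fgg, Hc, Klkb1, Masp2, Plg and Serpinc1 overlap those of other genes.

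Of the identifiers, 18040 matched a RefSeq symbol and 131 did not. RefSeq gave the promoters (GRCm38.p6), and GENCODE for GRCm38 gave the transcripts, coordinates and lengths. The 10532 genes that reached an FPKM of 1 in 6 or more libraries were fitted as log2(FPKM + 1) with limma 3.58.1 in R 4.3.3, with a variance trend on the mean. Additive terms of set and genotype gave the genotype over both sets, and the other contrasts came from a fit of the 4 group means. Tests were two-sided, with Benjamini-Hochberg adjustment per contrast and calls at an adjusted p under 0.05. Scripts were tested on simulated data. Python 3.11.15, numpy 2.4.6, pandas 2.3.3 and matplotlib 3.10.9 made the tables and plots.

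Alternatives were a pseudocount of 0.1, no filter, median-of-ratios scaling, quantile normalization, no variance trend, a replicate block, each library left out, and C4a and C4b, and Kng1 and Kng2, summed. After seeing the data, fits without the 6 libraries that stood apart, and with them as a term, were added. Every member is accounted for, called members are described in full by group, and other genes come from lists. The members and lists were chosen with earlier results of these data known. No pair of libraries held identical values (identical pairs: 0). Some genes and motifs of the lists are not reported here.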

Additional observations from a re-analysis of the deposited data

Results flagged for a closer look

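In each of 152 groups of 6 values (38 members in 4 groups), the highest and the lowest library was compared with the nearest other by Dixon's criterion, which chance passes in about 1 in 20 groups. It was passed in 17, and 14 of these were in libraries that stood apart over all genes. Those libraries were picked for wide deviations in these same data, members included, so that overlap is not a separate result. L2d13 set 2 replicate 3 held 8 of the 17. It was low for Cfi (119.32 FPKM, others from 230.25), F5 (37.63, others from 61.5), Fga (534.98, others from 1290.58), F13b (40.96, others from 70.85), Plg (507.1, others from 775.0) and Serpinf2 (287.32, others from 343.47), and high for F7 (55.74, others up to 42.77) and Proc (512.41, others up to 339.77).

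WT set 2 replicate 6 held 5, all low: C3 (766.48 FPKM, others from 1365.1), Cfi (151.92, others from 246.34), F2 (487.58, others from 839.94), Fgg (681.2, others from 1434.26) and Cpb2 (112.09, others from 165.25). The remaining libraries were high: WT set 4 replicate 11 for Fgb (3388.32, others up to 2406.91), WT set 4 replicate 7 for C4b (195.03, others up to 168.49), L2d13 set 4 replicate 12 for Masp1 (27.53, others up to 19.16) and L2d13 set 4 replicate 11 for Serpinc1 (1317.55, others up to 1120.55). No member differed between the sets by the limma test over all genes (1 at an unadjusted p under 0.05, C4a).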

How the results depend on the processing

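Over both sets 4 members were called. The count was 9 with median-of-ratios scaling (8 lower), 8 with quantile normalization (7 lower), 7 with the 6 libraries that stood apart as a term (6 lower), 5 with no variance trend, 4 without those libraries and 3 with no filter on low values. Leaving out each library in turn gave 3 to 8, the 8 without L2d13 set 2 replicate 3. In set 2 the count of 2 became 4 with median-of-ratios scaling, and 1 to 2 with a library left out. In set 4 the count of 2 became 5 with median-of-ratios scaling, 4 with quantile normalization, 0 without the 6 libraries, 3 with them as a term (Pros1, Mbl2 and C8a, without C4a), and 2 to 3 with a library left out. The shares of all tested genes under these settings are not given per set, so the counts per set have no background beside them. For the difference between sets the count of 0 became 0 to 1 with a library left out. For set 4 over set 2 in L2d13 livers the count of 0 became 1 with a pseudocount of 0.1, 2 without the 6 libraries, 1 with them as a term, and 0 to 1 with a library left out; in WT livers the count of 1 became 0 without the 6 libraries, and stayed 1 to 1 with a library left out. With the copies summed, C4a and C4b together had a log2 difference of 0.10, which is mostly that of C4b. The log2 difference of Cfi turned to -0.22 with the 6 libraries as a term. Among members not called, 16 changed sign with median-of-ratios scaling, which moves the median of all genes by -0.12 and so turns values near 0, 7 with quantile normalization, 11 without the 6 libraries and 9 with them as a term. Over all tested genes the calls were 2730 higher and 512 lower, against 1215 higher and 1164 lower with median-of-ratios scaling, 1310 and 1079 with quantile normalization, and 1554 and 503 without the 6 libraries. The fit with those 6 libraries as a term called 2786 of all tested genes higher and 459 lower, beside 6 of the 38 members lower. Causes were not tested, other than that fewer libraries enter some fits. Replicate numbers did not pair the libraries: 4 of 12 pairs had a correlation over 0.1, and 1 of 12 was closest to its own number. A fit with the replicate block called 3 members over both sets (without Klkb1, limma adjusted p = 0.0821) and 1 in set 2, and none could be made for set 4 over set 2, whose numbers differ. Depth is unknown, so no counting error is given, and C4a, near 1 FPKM, is the value it limits most.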
